A study of Mus musculus with 22 samples.

Results

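The Zfp genes are the mouse genes whose symbol is Zfp followed by a number, most of which encode zinc finger proteins. Their members here are the H3K27ac windows of the autosomal protein-coding Zfp genes within 10000 bp of the annotated start site, without *Zfp36*, which encodes an RNA-binding protein of another finger type. This gave 723 windows of 1000 bp at 301 genes, of 96381 windows at 17277 named genes in all. H3K27ac ChIP–seq, which marks active promoters and enhancers, was measured in Kupffer cells, which are macrophages resident in the liver, sorted by FACS from untreated young adult male mice by a gate for CD45 and high F4/80 without CD146. The inbred strains A/J, BALB/cJ and C57BL/6J had 3 libraries each, with 3, 3 and 1 ChIP input libraries, and the CB6F1/J hybrid of C57BL/6J and BALB/cJ had 3 libraries in which each allele is counted in a column of its own. A window is named for the gene with the nearest start site, so that a window can lie in another gene. In a mixture of sorted cells, more cells with the mark and more of the mark per cell cannot be told apart.

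Proteins with C2H2 zinc fingers bind DNA through repeated fingers, each held together by a zinc ion. Many also carry a KRAB domain, through which the corepressor TRIM28 and the histone methyltransferase SETDB1 are recruited, and such proteins are known for silencing transposable elements and for guarding imprinted regions. Their genes arose largely by tandem duplication, so they lie in arrays of related copies that differ between species and between mouse strains.

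The promoters below belong to genes called between strains or alleles at a start site for which a sequence was at hand. *Zfp951*, *Zfp459* and *Zfp30* differed between C57BL/6J and the other strains, and *Zfp760*, *Zfp456* and *Zfp994* were called between the alleles of CB6F1/J, though not when the alleles were paired by library or when replicate 3 was left out. Each line gives the 250 bases before the RefSeq start site on the gene's own strand, 5′ to 3′, with capitals at matches to the motifs searched. The sequences are from RefSeq on the GRCm38.p6 assembly, which is that of C57BL/6J. The positions are chr5:104860069-104860318 (minus strand) for *Zfp951*, chr13:67421419-67421668 (minus) for *Zfp459*, chr7:29783718-29783967 (plus) for *Zfp30*, chr17:21707491-21707740 (plus) for *Zfp760*, chr13:67375764-67376013 (minus) for *Zfp456* and chr17:22225615-22225864 (minus) for *Zfp994*.
Zfp951: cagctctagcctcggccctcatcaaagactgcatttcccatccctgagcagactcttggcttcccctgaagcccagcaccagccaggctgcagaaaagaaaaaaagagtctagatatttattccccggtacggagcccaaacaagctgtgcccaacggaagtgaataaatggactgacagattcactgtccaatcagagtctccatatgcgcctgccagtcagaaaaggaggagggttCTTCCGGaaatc
Zfp459: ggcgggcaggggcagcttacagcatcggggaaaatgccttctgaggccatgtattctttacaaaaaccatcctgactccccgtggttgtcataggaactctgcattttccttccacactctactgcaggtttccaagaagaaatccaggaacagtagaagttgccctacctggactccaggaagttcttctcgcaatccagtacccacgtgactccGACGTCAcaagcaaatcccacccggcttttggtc
Zfp30: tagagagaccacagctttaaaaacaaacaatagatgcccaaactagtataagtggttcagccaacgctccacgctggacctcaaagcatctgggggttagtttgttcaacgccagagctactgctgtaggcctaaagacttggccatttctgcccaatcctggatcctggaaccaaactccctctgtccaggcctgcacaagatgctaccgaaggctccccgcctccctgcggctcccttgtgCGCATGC
Zfp760: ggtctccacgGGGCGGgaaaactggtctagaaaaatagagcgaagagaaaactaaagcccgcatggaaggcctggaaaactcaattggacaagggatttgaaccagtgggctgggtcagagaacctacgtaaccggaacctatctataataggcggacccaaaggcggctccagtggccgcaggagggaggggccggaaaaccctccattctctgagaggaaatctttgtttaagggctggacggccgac
Zfp456: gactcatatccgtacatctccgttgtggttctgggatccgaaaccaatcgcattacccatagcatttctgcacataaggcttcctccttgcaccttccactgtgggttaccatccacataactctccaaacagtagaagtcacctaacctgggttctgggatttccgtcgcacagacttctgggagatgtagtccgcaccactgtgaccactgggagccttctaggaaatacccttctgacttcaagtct
Zfp994: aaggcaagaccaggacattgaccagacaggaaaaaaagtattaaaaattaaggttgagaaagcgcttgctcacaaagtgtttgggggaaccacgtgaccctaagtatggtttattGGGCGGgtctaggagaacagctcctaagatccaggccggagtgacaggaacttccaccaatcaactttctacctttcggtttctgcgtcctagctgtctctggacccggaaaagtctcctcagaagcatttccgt

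The motifs searched on both strands were CCGGAAG for ETS factors, GCATGCG for NRF1, AAGATGG for YY1, GGGCGG for SP1, TGACGTC for the cyclic AMP response element and TATAAA for the TATA box, none of which contains another. The promoter of *Zfp951* held the ETS motif on the reverse strand, 12 to 6 bases before the start. *Zfp459* held the cyclic AMP response element 34 to 28 bases before its start, and *Zfp30* the NRF1 motif at bases 7 to 1, both on the reverse strand. The SP1 motif lay at 240 to 235 in *Zfp760* and at 135 to 130 in *Zfp994*, and the promoter of *Zfp456* held none of the 6. Such a match describes the letters and does not show that a factor binds.

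RefSeq held a promoter for 251 of the 301 Zfp genes. The ETS motif was found in 17.5% of them, against 6.91% of all 32851 promoters in the table and 12.2% of the promoters of protein-coding genes with a window. The shares for NRF1 were 6.37%, 3.02% and 4.96% in the same order, and for the cyclic AMP response element 5.18%, 2.78% and 4.30%. The Zfp promoters held the TATA motif in 5.98%, against 12.4% of all promoters and 7.29% of those of protein-coding genes with a window. They held the SP1 motif in 40.2%, which lies between the 32.7% of all promoters and the 54.5% of protein-coding genes with a window. YY1 was found in 4.38%, 4.49% and 4.27%. The median GC content of the Zfp promoters was 53.6%, against 59.2% for protein-coding genes with a window. Copies of promoters were also found within the family. In 13 pairs, 10 of them in the same cluster, the promoters shared at least 1 run of 31 identical bases, most in *Zfp758* and *Zfp943*, with 184 shared words of 31 bases that overlap one another, and *Zfp942* and *Zfp944* (164) on chromosome 17.

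Most Zfp genes lay in clusters on a few chromosomes. Chromosome 7 held 83 of the 301 genes, chromosome 17 held 40, chromosome 13 held 30 and chromosome 8 held 22. Joining neighbors up to 500000 bp apart gave 26 clusters of 3 or more genes with 176 genes on 11 chromosomes. The largest by number of genes ran from *Zfp160* to *Zfp13* on chromosome 17 (23 genes over 2.59 Mb), from *Zfp712* to *Zfp273* on chromosome 13 (19 genes over 0.754 Mb), and, on chromosome 7, from *Zfp180* to *Zfp526* (14 genes over 1.14 Mb) and from *Zfp84* to *Zfp146* (14 genes over 0.400 Mb). Chromosome 11 held 13 Zfp genes and no cluster.

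The share of genes with a KRAB pattern differed between these arrays. A coding sequence was found for 300 genes, and 294 of its translations held the C2H2 pattern, with a median of 11 fingers (quartiles 7 to 14) and at most 36, in *Zfp142*. The pattern of the KRAB A-box was found in 131 genes (43.7%), in 97 of 176 genes in clusters and 34 of 124 outside. It was held by 19 of the 23 genes in the large array of chromosome 17, by 13 of 19 on chromosome 13 and by 11 of 14 from *Zfp84* to *Zfp146*, but by 0 of 14 from *Zfp180* to *Zfp526*. The same pattern was found in 249 of 801 mouse proteins with fingers and in 16 of 21047 without. A KRAB domain whose A-box departs from this pattern would be missed, and missed domains were not counted. A gene without the pattern can therefore still encode a KRAB domain. Near-identical copies of the window elsewhere in the genome (500 bp or more at 90% identity or more) were found for 47 of the 723 windows (6.50%), so reads there may be split or lost.

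**Figure D1:**
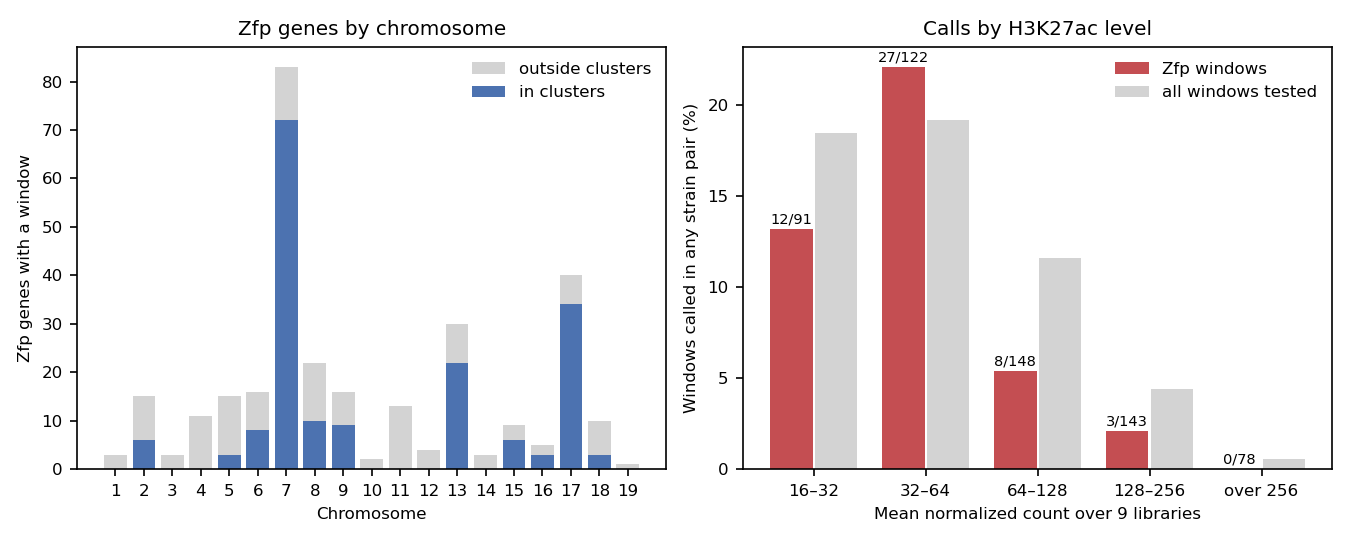
The left panel shows the number of Zfp genes with a window on each autosome, split into genes in clusters (blue) and outside (gray), with 83, 40 and 30 genes on chromosomes 7, 17 and 13. The right panel shows the percentage of tested windows called in any strain pair by mean normalized count, for Zfp windows (red, with the counts above each bar) and all windows (gray), and the Zfp calls are most frequent between counts of 32 and 64 (27 of 122).

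The libraries held 2291425.5 to 12980348 counts in windows, the lowest being replicate 2 of each strain, and the inputs held 583517.5 to 1916587.5. Zfp windows took 0.977% to 1.10% of the H3K27ac counts and 0.613% to 0.699% of the input. Within a strain the correlation between libraries was at least 0.880, and between libraries of different strains it reached 0.914 (A/J and BALB/cJ replicates 1) and 0.9045 (replicates 3 of these strains), above the lowest value within either strain. All 10 Kupffer cell markers had a window and 9 exceeded a normalized count of 32, with medians of 245, 267 and 317 (values of the strains are given in the order A/J, BALB/cJ and then C57BL/6J) and the highest level at *Timd4*. Of markers of other cells, 1 of 4 hepatocyte genes had a window, with 3.16, 3.55 and 6.94, and 1 of 4 stellate cell genes, with 5.09, 3.10 and 3.17. Summed over the genes with a window, the levels were 65.8, 76.0 and 64.8 for 4 of 5 endothelial genes, 36.5, 71.0 and 60.3 for 2 of 4 monocyte and neutrophil genes, 55.5, 71.5 and 31.9 for 2 of 4 T and NK cell genes and 137, 116 and 178 for 2 of 4 dendritic cell genes. The single B cell gene of 4 with a window had 52.2, 41.6 and 74.6. Their part in the results below was not tested.

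H3K27ac at the start sites of Zfp genes was of a middle level. Levels are normalized counts, scaled from each library's effective size to the mean effective size of 7281272, and can be compared between genes as all windows are 1000 bp wide. The window nearest the start had a median of 90.1 over the 301 genes (quartiles 32.5 to 162), against 88.0 (17.2 to 201) over 13004 protein-coding genes with a window. Among such windows with a mean over 16, the median was 104 over 264 Zfp genes and 135 over 9849 protein-coding genes. Over all 301 Zfp genes the medians of the strains were 86.7, 86.2 and 93.9. Genes with the KRAB pattern had a median of 78.3 and those without 101, and genes in clusters 78.0 against 108 outside. The highest levels were found at *Zfp655* (674), *Zfp513* (614), *Zfp335* (604), *Zfp62* (596) and *Zfp263* (512), none of which holds the KRAB pattern. The lowest was that of *Zfp474* (2.86), in whose protein no finger was found.

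Of 33 Zfp genes with a known role, 28 had a window. *Zfp335*, which is required for the maturation of T cells, had levels of 652 ± 39.4, 568 ± 133 and 594 ± 145 (SD, n = 3 libraries each). *Zfp207*, which encodes a kinetochore protein, had 456 ± 93.1, 388 ± 64 and 451 ± 111, and *Zfp143*, an activator that binds promoters, 441 ± 83.0, 397 ± 109 and 391 ± 55.2. In none of these genes was a window called in any strain pair. *Zfp809*, which silences murine leukemia proviruses, had 196 ± 4.94, 157 ± 33.7 and 223 ± 53.2, and *Zfp445*, which acts at imprinting control regions, 232 ± 83.2, 212 ± 48.7 and 203 ± 47.8. Its partner in that role, *Zfp57*, was near background, at 7.69, 4.84 and 4.06, and was not tested. Of the 99 tested windows of the list, 1 was called between A/J and BALB/cJ, 5 between A/J and C57BL/6J and 4 between BALB/cJ and C57BL/6J, at *Zfp106*, *Zfp263*, *Zfp281* and *Zfp568*. These are 1.01%, 5.05% and 4.04% of the list's windows, each below the shares of 3.63%, 7.09% and 8.56% over all windows. The medians of their log2 fold changes were 0.08, -0.02 and -0.15.

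Of the 723 Zfp windows, 582 (80.5%) at 267 genes had a mean normalized count over 16 and were tested with edgeR. A call required an adjusted p (Benjamini–Hochberg, over the 60387 windows tested) under 0.05 together with an absolute log2 fold change over 1. Between A/J and BALB/cJ, 15 Zfp windows (2.58%) at 12 genes were called, against 3.63% of all windows. Of these, 4 were higher in A/J (1.40% of all windows) and 11 higher in BALB/cJ (2.23% of all windows). The count was 8 without A/J replicate 3 and 9 without BALB/cJ replicate 3. Between A/J and C57BL/6J, 34 windows (5.84%) at 27 genes were called, against 7.09% of all, 13 higher in A/J (3.16% of all) and 21 higher in C57BL/6J (3.93% of all). Without C57BL/6J replicate 3 the count was 19, and it was 21 among windows with at least 3 input counts in both strains. Between BALB/cJ and C57BL/6J, 35 windows (6.01%) at 23 genes were called, against 8.56% of all, 19 higher in BALB/cJ (4.46% of all) and 16 higher in C57BL/6J (4.10% of all). This balance turned to 12 and 20 without BALB/cJ replicate 3, 15 and 18 without BALB/cJ replicate 1, 14 and 16 without C57BL/6J replicate 1, 16 and 24 without C57BL/6J replicate 2 and 22 and 26 without replicate 2 of all strains.

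Pairing libraries of the same replicate number as a block removed none of these strain calls and added some. The shares of all windows called under the block are not given here. For A/J against BALB/cJ the block added 5 windows, at *Zfp2* (-1.02, adjusted p = 0.0102), *Zfp763* (-1.06, 0.0267), *Zfp35* (1.11, 0.0411) and further windows of *Zfp827* (-1.37, 0.0071) and *Zfp870* (-1.16, 0.0171). The 7 added between A/J and C57BL/6J lay at *Zfp467* (-1.23, adjusted p = 0.00656), *Zfp786* (-1.26, 0.0160), *Zfp946* (1.22, 0.0291), *Zfp791* (-1.22, 0.0480) and *Zfp532* (1.11, 0.0286) and at further windows of *Zfp281* (-1.06, 0.00604) and *Zfp65* (-1.03, 0.00925). The 6 added between BALB/cJ and C57BL/6J lay at *Zfp2* (1.04, adjusted p = 0.0077), *Zfp786* (-1.13, 0.0257), *Zfp809* (-1.08, 0.0164), *Zfp958* (-1.09, 0.0407), *Zfp458* and *Zfp773*.

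Without the block, the shares of called windows lay close to those of all protein-coding genes within the same distance, which were 2.47%, 4.79% and 6.12%. At the window nearest the start site, 6, 12 and 13 of 264 Zfp genes were called (2.27%, 4.55% and 4.92%), against 1.62%, 2.89% and 3.79% of protein-coding genes. The medians of the log2 fold changes over the tested Zfp windows were 0.06, -0.03 and -0.06, against 0.01, -0.01 and -0.01 over all windows on a scale that normalization centers near 0. Neighboring windows are not independent, since 394 of the 723 Zfp windows overlap another of them, as did 4, 8 and 10 of the called windows in the 3 comparisons.

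Windows of several Zfp genes carried more H3K27ac in C57BL/6J than in the other strains. The largest difference at a promoter was that of *Zfp951*, which encodes a protein with 10 fingers and the KRAB pattern. In its window at the start (chr5:104859641-104860641, 73 bp upstream), the normalized counts of replicates 1 to 3 were 4.4, 3.0 and 5.2 in A/J, 5.1, 0.0 and 4.4 in BALB/cJ and 158.6, 149.0 and 201.5 in C57BL/6J. The 3 C57BL/6J libraries lay far above the other 6, which overlapped each other. On the log2 scale A/J over C57BL/6J was -5.19 (0.38, adjusted p = 6.16e-10, where the first value is the standard error) and BALB/cJ over C57BL/6J -5.40 (0.39, adjusted p = 5.27e-10). An overlapping window at the first exon differed likewise, by -4.01 and -4.16. The ChIP input of this window summed to 1 count over 3 A/J libraries and 6 over 3 BALB/cJ libraries, where the median tested Zfp window held 32 and 25, while in the C57BL/6J library it held 3 against a median of 5. Fewer than 10 input counts in A/J were found in 3 of the 582 tested windows, 2 of them those of *Zfp951*. The genome holds a copy of the window at 97.9% identity, and no allelic count was found there in CB6F1/J. The part of the input in the difference was not tested.

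The intergenic window of *Zfp493*, 1071 bp upstream of its start on chromosome 13 (67778122 to 67779122), held 6.6, 0.0 and 3.2 in A/J, 4.2, 6.9 and 7.3 in BALB/cJ and 191.9, 116.4 and 253.2 in C57BL/6J. Again the 3 C57BL/6J libraries lay apart from all others, with log2 fold changes of -5.45 (0.42, adjusted p = 1.35e-09) for A/J and -4.96 (0.40, adjusted p = 2.72e-09) for BALB/cJ. Here the input held 27, 15 and 12 counts, where the median tested Zfp window held 32, 25 and 5. The lowest 5% of tested Zfp windows lay under 20, 14 and 1. The part of the input in this difference was not tested either. At the start site itself the difference was smaller. The counts there were 72.1, 65.3 and 82.1 in A/J, 97.1, 82.4 and 108.1 in BALB/cJ and 289.1, 193.3 and 396.8 in C57BL/6J, with log2 fold changes of -2.0 and -1.61 (adjusted p = 3.62e-06 and 4.98e-05) and no overlap between the strains.

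*Zfp446*, whose protein has 3 fingers, showed its difference in exon 3 of 5 rather than at the start. That window (chromosome 7, 12979140 to 12980140) held 42.7, 38.6 and 34.3 in A/J, 30.4, 36.6 and 22.6 in BALB/cJ and 170.6, 186.3 and 188.9 in C57BL/6J. The A/J and BALB/cJ libraries overlapped, and C57BL/6J lay above both, by -2.24 (0.26, adjusted p = 6.38e-07) and -2.66 (0.26, adjusted p = 6.83e-08) on the log2 scale. A further window, at the end of the neighboring gene *Slc27a5*, differed by -3.16 and -2.99. *Zfp146*, the last gene of its cluster on chromosome 7, had a single window, in an intron 2485 bp from the start. It held 4.4, 0.0 and 1.9 in A/J, 2.5, 4.6 and 2.2 in BALB/cJ and 49.3, 48.9 and 47.2 in C57BL/6J, so the signal was near background in all 6 libraries of the first 2 strains. The log2 fold changes were -4.09 for A/J (0.50, adjusted p = 1.99e-06) and -4.09 for BALB/cJ (0.51, adjusted p = 2.35e-06), with 36, 32 and 3 input counts.

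At other promoters the C57BL/6J libraries were the low ones. *Zfp459*, a KRAB gene with 3 fingers, held 55.2, 35.6 and 58.2 in A/J, 59.1, 75.5 and 68.6 in BALB/cJ and 8.0, 9.3 and 5.0 in C57BL/6J at its start (chr13:67420883-67421883). The log2 fold changes were 2.93 (0.38, adjusted p = 4.79e-06) for A/J and 3.29 (0.38, adjusted p = 6.31e-07) for BALB/cJ over C57BL/6J, and these 2 strains lay apart from C57BL/6J in all libraries. *Zfp30*, a KRAB gene with 12 fingers, held 41.2, 65.3 and 55 in A/J, 52.3, 64.1 and 53.3 in BALB/cJ and 14.7, 11.6 and 8.8 in C57BL/6J at its start (chr7:29783481-29784481). Here A/J and BALB/cJ overlapped, and both exceeded C57BL/6J, by 2.21 (0.35, adjusted p = 9.06e-05) and 2.30 (0.35, adjusted p = 4.53e-05).

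*Zfp947* on chromosome 17 held 30.9, 11.9 and 58.2 in A/J, 42.2, 32.0 and 58.4 in BALB/cJ and 8.0, 9.3 and 3.1 in C57BL/6J at its start. Although its A/J libraries spread widely, none overlapped C57BL/6J (log2 fold changes 2.68 and 2.96, adjusted p = 0.000812 and 0.000214), and the window has 3 near copies in the genome at up to 91.9% identity. In *Zfp568*, which represses a placental promoter of *Igf2*, the window in intron 1 held 180.4, 237.3 and 210.2 in A/J, 178.1, 201.4 and 198.6 in BALB/cJ and 105.3, 116.4 and 70.5 in C57BL/6J. The difference was modest in size, at 1.13 (0.24, adjusted p = 0.0019) and 1.02 (0.23, adjusted p = 0.00437), and fell to 0.91 for A/J without C57BL/6J replicate 3, under the threshold on size. Another window in its intron 4, 9573 bp from the start, held 28.0, 17.8 and 32.3, then 53.2, 32.0 and 57.7 and, in C57BL/6J, 0.0, 14.0 and 3.1 (2.69 and 3.52, adjusted p = 0.0025 and 6.47e-05). *Zfp74*, at its upstream window (52.2 ± 19, 43.3 ± 9 and 15.2 ± 3.90), and *Zfp13* (68.4 ± 9.16, 73.9 ± 33.6 and 29.3 ± 9.83) were lower in C57BL/6J as well, in both comparisons. *Zfp692* had a window 5815 bp upstream that held 52.3, 91.6 and 97.9 in BALB/cJ and 17.3, 16.3 and 17.6 in C57BL/6J (2.20, adjusted p = 3.02e-05), with A/J between them at 39.0, 41.5 and 50.5. A/J over C57BL/6J was called in that window too (1.35, adjusted p = 0.00998).

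Other genes were called against C57BL/6J as well. In intron 1 of *Zfp106*, which encodes an RNA-binding protein, the counts were 28.7, 29.7 and 29.1 in A/J, 5.1, 9.2 and 16.8 in BALB/cJ and 81.3, 46.6 and 80.6 in C57BL/6J, with no overlap between any of the strains. BALB/cJ over C57BL/6J gave -2.71 (0.38, adjusted p = 1.49e-05) and A/J over C57BL/6J -1.29 (adjusted p = 0.0148). Upstream of *Zfp263*, whose protein is a regulator of transcription with 9 fingers, A/J held 102.3, 133.5 and 125.5 and C57BL/6J 250.5, 195.6 and 301.1, a difference of -1.08 (adjusted p = 0.00241) that was -0.97 without A/J replicate 1 and -0.91 without C57BL/6J replicate 3. Of the remaining genes, *Zfp810* had more in C57BL/6J in both comparisons (26.1 ± 4.91, 20.9 ± 8.48 and 66.2 ± 9.20), as did *Zfp281*, a regulator of pluripotency genes, 4036 bp from its start (27 ± 9.27, 32.3 ± 5.74 and 61.2 ± 20.8). In 1 comparison each, *Zfp458*, *Zfp65*, *Zfp541* and *Zfp948* were higher in C57BL/6J and *Zfp84*, *Zfp760*, *Zfp637*, *Zfp773* and *Zfp532* lower. With the replicate number as a block, *Zfp458* (BALB/cJ over C57BL/6J -1.10, adjusted p = 0.00352), *Zfp773* (1.28, adjusted p = 0.0179) and *Zfp532* (A/J over C57BL/6J 1.11, adjusted p = 0.0286) were called against C57BL/6J in the other comparison too.

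**Figure D2:**
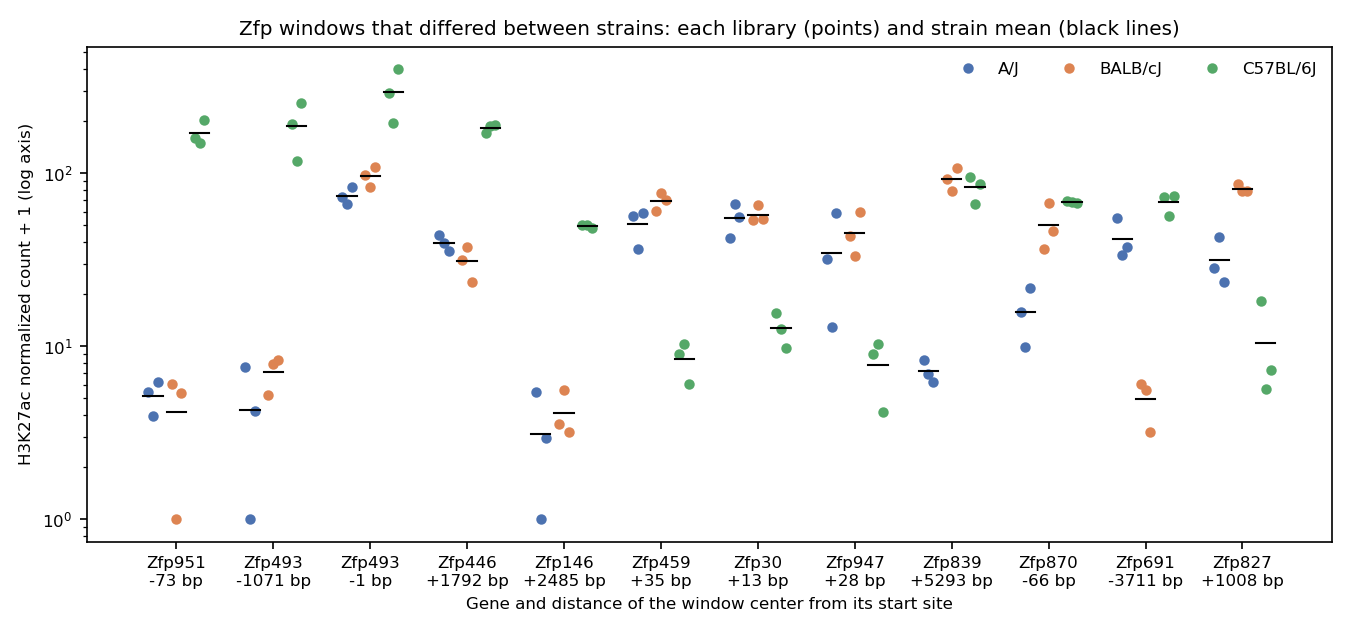
Normalized H3K27ac counts plus 1 on a log axis for 12 Zfp windows, labeled by gene and by the distance of the window center from the start site, with 1 point per library and the strain mean as a black line (blue A/J, orange BALB/cJ, green C57BL/6J). C57BL/6J lies above both other strains in the 5 windows on the left and below them at *Zfp459*, *Zfp30* and *Zfp947*, while A/J is lowest at *Zfp839* and *Zfp870* and BALB/cJ is lowest at *Zfp691* and highest at *Zfp827*.

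A smaller group of genes was low in A/J. In *Zfp839*, whose protein held no C2H2 pattern despite the name, the window in exon 2 of 7 (chr12:110855072-110856072) held 7.4, 5.9 and 5.2 in A/J, 91.2, 77.8 and 106.6 in BALB/cJ and 94.6, 65.2 and 85.7 in C57BL/6J. The A/J libraries lay below all others, and BALB/cJ and C57BL/6J overlapped. In A/J the log2 fold change was -3.89 (0.34, adjusted p = 3.20e-08) over BALB/cJ and -3.72 (0.35, adjusted p = 2.72e-08) over C57BL/6J, while BALB/cJ over C57BL/6J gave 0.17 (adjusted p = 0.78). The start site of *Zfp839*, at a mean of 253, lies 5293 bp away and was not called. *Zfp870*, a KRAB gene of chromosome 17, held 14.7, 8.9 and 20.7 in A/J, 35.5, 66.4 and 45.3 in BALB/cJ and 68.0, 67.5 and 66.1 in C57BL/6J at its start. A/J did not overlap either strain, with log2 fold changes of -1.52 (0.34, adjusted p = 0.00699) and -2.03 (0.33, adjusted p = 0.000116).

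In BALB/cJ, the windows of *Zfp691* were low and those of *Zfp827* high. The strongest window of *Zfp691* lies 3711 bp upstream, within exon 13 of 13 of the neighboring gene *Ermap* (chr4:119177406-119178406). It held 53.7, 32.6 and 36.2 in A/J, 5.1, 4.6 and 2.2 in BALB/cJ and 72, 55.9 and 72.4 in C57BL/6J, with all BALB/cJ libraries below the rest. The log2 fold change was 3.46 (0.43, adjusted p = 6.22e-06) for A/J over BALB/cJ and -4.14 (0.42, adjusted p = 9.40e-08) for BALB/cJ over C57BL/6J. At its own start *Zfp691* held 58.4 ± 9.20, 40.8 ± 8.65 and 121 ± 62.2, with log2 fold changes to C57BL/6J of -1.08 (adjusted p = 0.0302) for A/J and -1.66 (adjusted p = 0.000955) for BALB/cJ. In intron 1 of *Zfp827*, 1008 bp from the start, the counts were 27.2, 41.5 and 22.6 in A/J, 86.1, 77.8 and 77.4 in BALB/cJ and 17.3, 4.7 and 6.3 in C57BL/6J. None of the 3 strains overlapped another there, and the log2 fold change was 3.09 (0.39, adjusted p = 2.79e-06) for BALB/cJ over C57BL/6J and -1.51 (0.33, adjusted p = 0.00613) for A/J over BALB/cJ. A/J over C57BL/6J was called there as well (1.58, adjusted p = 0.0167). Of the 6 windows of *Zfp827*, 4 were called between BALB/cJ and C57BL/6J, all higher in BALB/cJ.

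The other genes called between A/J and BALB/cJ were nearer to the threshold. In the same windows, BALB/cJ over C57BL/6J was also called at *Zfp248* (1.67, adjusted p = 0.000672), *Zfp964* (1.56, 0.00111) and *Zfp251* (1.22, 0.018). A/J over C57BL/6J was also called at *Zfp971* (-2.57, adjusted p = 0.00281) and *Zfp386* (1.69, 0.0112). *Zfp106* was called against C57BL/6J as given above, while *Zfp37* and *Zfp791* were not called against it without the block. At the start of *Zfp251*, A/J had 17.7 ± 7.21 and BALB/cJ 63.0 ± 8.33 (-1.74, adjusted p = 0.00258), and at that of *Zfp37* the levels were 29.1 ± 2.94 and 71.5 ± 12.2 (-1.33, adjusted p = 0.00465). In both genes the libraries of the strains did not overlap, but *Zfp37* was not called without A/J replicate 3 (adjusted p = 0.0554) or BALB/cJ replicate 3 (adjusted p = 0.0598). *Zfp791* (7.32 ± 1.96 and 27.7 ± 4.21) and *Zfp248* (29.2 ± 4.99 and 67.0 ± 17.4) had log2 fold changes of -1.87 and -1.23 (adjusted p = 0.0105 and 0.0167). Both lost the call without the same libraries, at an adjusted p of 0.0998 and 0.0699 for *Zfp791* and of 0.149 and 0.224 for *Zfp248*. *Zfp971* (7.96 ± 7.09 and 51.4 ± 33.5, -2.37, adjusted p = 0.0106) has 35 near copies of its window in the genome and was not called without A/J replicate 1 (adjusted p = 0.0828) or BALB/cJ replicate 3 (0.138). *Zfp964* (45.2 ± 11.3 and 102 ± 19.3, -1.17, adjusted p = 0.0218) was not called without A/J replicate 3 (adjusted p = 0.195), BALB/cJ replicate 2 (0.0649) or BALB/cJ replicate 3 (0.0996). Higher in A/J were windows of *Zfp386*, at 40.4 ± 5.2 and 13.1 ± 7.67 (1.49, adjusted p = 0.0341), and of *Zfp106*, at 29.2 ± 0.479 and 10.3 ± 5.95 (1.42, adjusted p = 0.0458). The call of *Zfp386* was lost without any of 4 libraries (A/J replicates 1 and 3, BALB/cJ replicates 2 and 3, adjusted p = 0.0893, 0.170, 0.0907 and 0.141). That of *Zfp106* was lost without any of 7 of the 9 (adjusted p from 0.0609 to 0.270, BALB/cJ replicate 3 and C57BL/6J replicate 2 being the exceptions) and without replicate 2 of all 3 strains (0.0637).

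Within the clusters, calls stood beside genes that were not called. From *Zfp84* to *Zfp146* on chromosome 7 (29767950 to 30167756), *Zfp30*, *Zfp74* and *Zfp568* were higher in BALB/cJ than in C57BL/6J and *Zfp146* was lower, while the median log2 fold change of the 12 tested start windows was 0.13. From *Zfp712* to *Zfp273* on chromosome 13 (67060601 to 67814477), *Zfp459* was higher and *Zfp493* lower, with a median of -0.23 over 19 start windows, 4 of which were above 0. From *Zfp160* to *Zfp13* on chromosome 17 (21008402 to 23599732), *Zfp947* and *Zfp13* were higher and *Zfp948* lower, with a median of -0.18 over 22 start windows, 6 of them above 0. The median over all tested windows was -0.01, and the 2 negative cluster medians were not tested.

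The large array without KRAB patterns, from *Zfp180* to *Zfp526* on chromosome 7, had 0 of 14 tested windows called in any strain pair, by edgeR or by DESeq2. Over all windows, edgeR called 3.63% between A/J and BALB/cJ, 7.09% between A/J and C57BL/6J and 8.56% between BALB/cJ and C57BL/6J. Whether 0 of 14 differs from these shares was not tested. Of the 14 windows, 1 had an unadjusted p under 0.05, between A/J and C57BL/6J. In the cluster of *Zfp251*, *Zfp7* and *Zfp647* on chromosome 15, the 2 tested start windows, of *Zfp251* and *Zfp647*, were both higher in BALB/cJ than in C57BL/6J, by 1.22 and 1.13 (adjusted p = 0.018 and 0.0317), and each had its 3 BALB/cJ libraries above the 3 of C57BL/6J. In all, 8 of 26 clusters held a call between A/J and C57BL/6J, 7 between BALB/cJ and C57BL/6J and 3 between A/J and BALB/cJ. Over all protein-coding genes with a tested window, 8.93% were called between A/J and C57BL/6J, 11.3% between BALB/cJ and C57BL/6J and 4.85% between A/J and BALB/cJ. Among tested Zfp genes in clusters, 17 of 157 (10.8%) were called between A/J and C57BL/6J, against 10 of 110 (9.09%) outside, and 14 (8.92%) against 9 (8.18%) between BALB/cJ and C57BL/6J. Between A/J and BALB/cJ the counts were 3 (1.91%) in clusters and 9 (8.18%) outside. With the KRAB pattern, 15 of 115 genes (13%) were called between A/J and C57BL/6J, and 12 of 151 (7.95%) without it. The shares with and without the pattern were 9.57% and 7.95% between BALB/cJ and C57BL/6J, and 5.22% and 3.97% between A/J and BALB/cJ. None of these differences between groups of genes was tested.

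**Figure D3:**
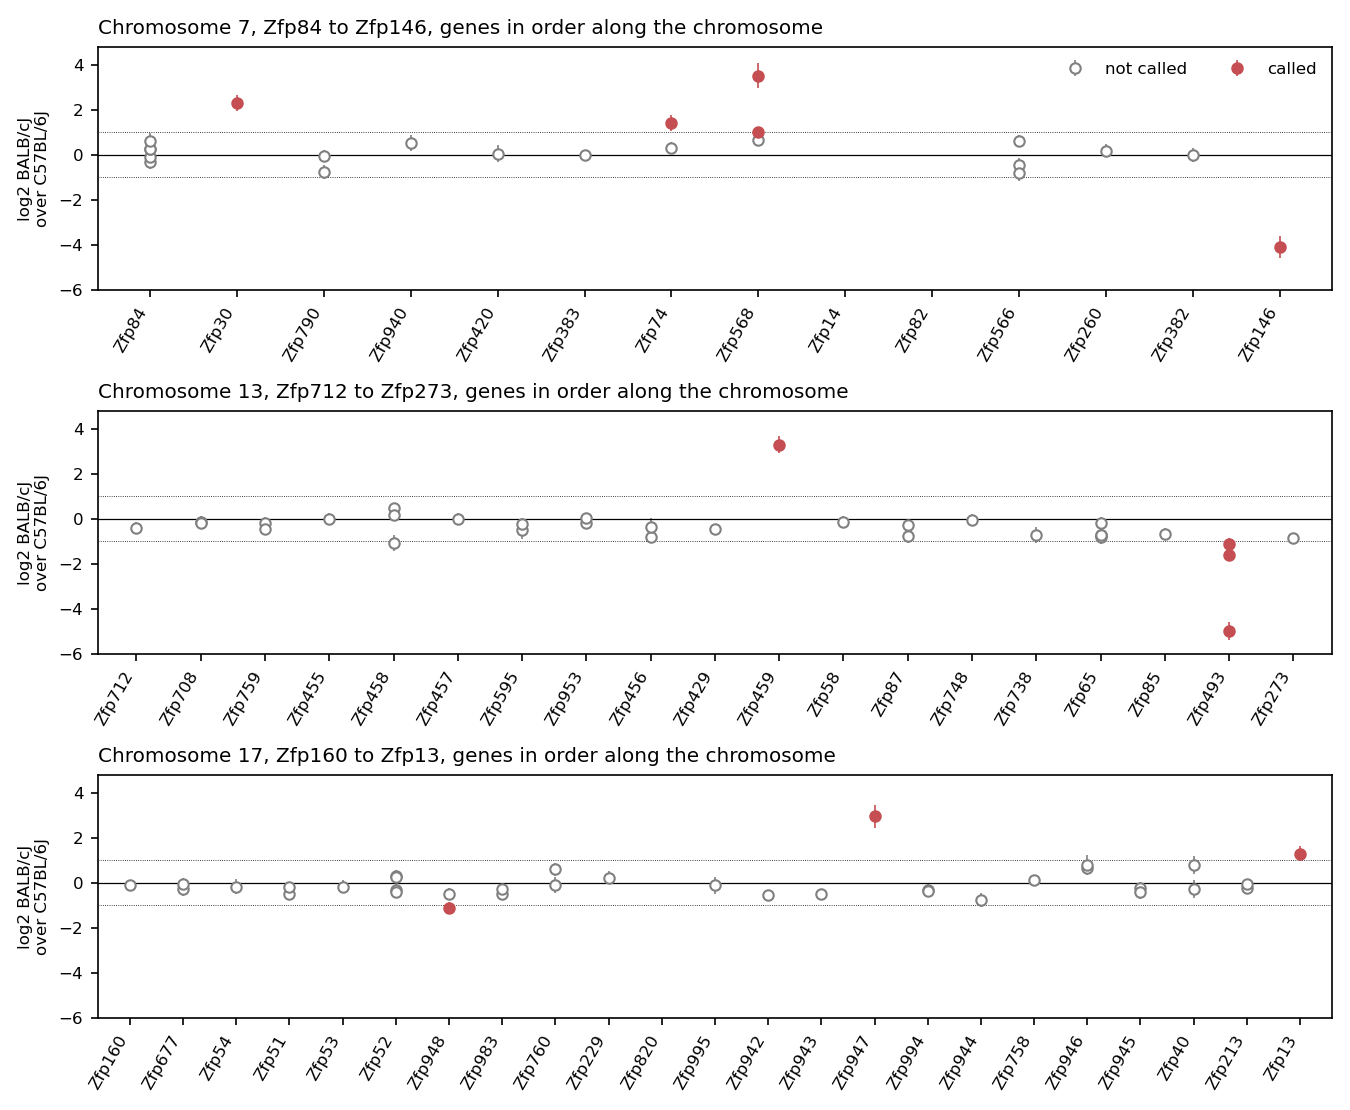
Log2 fold changes of BALB/cJ over C57BL/6J with standard errors (n = 3 libraries each) for every tested window in 3 Zfp clusters, with genes in order along the chromosome and not to scale, called windows in red and dotted lines at 1 and -1. Called genes such as *Zfp30*, *Zfp146*, *Zfp459*, *Zfp493* and *Zfp947* stand among neighbors near 0, and genes without a point had no tested window.

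Windows called in any strain pair numbered 50, at 36 genes. These were 13.5% of the Zfp genes with a tested window, against 15.7% of protein-coding genes, which had 3.2 windows each where Zfp genes had 2.4. Their median normalized count was 39.6, against 94.3 over all tested Zfp windows, which include them. Of windows with a mean between 32 and 64, 27 of 122 (22.1%) were called, against 19.2% of all windows in this range. Between 128 and 256 the count was 3 of 143 (2.10%, against 4.43% of all), and above 256 it was 0 of 78 by edgeR and by DESeq2 (0.579% of all windows by edgeR). At an unadjusted p under 0.05, 1, 7 and 5 of these 78 passed in the 3 comparisons. By position, 21 of 308 windows at promoters were called (6.82%, against 5.27% of all promoter windows), 17 of 167 in introns (10.2%, against 12.9%), 3 of 45 in intergenic sequence (6.67%, against 16.8%) and 4 of 20 in exons (20.0%, against 10.6%). Promoters made up 47.2% of the 723 Zfp windows and 32.0% of those of protein-coding genes.

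In the CB6F1/J hybrid, both alleles share the same nucleus, and the BALB/cJ allele was compared with the C57BL/6J allele at the allelic region nearest to the center of each window. Allelic counts were sparse, with 182653.5 to 400681 per column, and 530 of the 723 windows had none at that region. Tests were possible at 64 windows of 52 genes, with 96 to 783 allelic counts over the 6 columns. Of these, 8 windows (12.5%) at 5 genes, 4 with the KRAB pattern, were called by edgeR, against 7.31% of all 3870 windows tested, 3 higher on the BALB/cJ allele (3.18% of all) and 5 higher on the C57BL/6J allele (4.13% of all). The 8 windows rest on 5 of the 54 regions behind the 64 tested windows, because neighboring windows share one. Some regions are thus counted more than once in the 12.5%. When the regions were tested as deposited, 6 of 73 were called, and no share over all deposited regions is given here. The count was 2 without CB6F1/J replicate 2, 0 without replicate 3 and 5 without windows that have a near-identical copy. Where the alleles of a library were paired by the replicate number as a block, 2 windows were called, both of *Zfp568*.

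*Zfp568* favored the BALB/cJ allele. Its region at the start held 58, 100 and 100 reads of the BALB/cJ allele and 19, 40 and 41 of the C57BL/6J allele in replicates 1 to 3, or 89.4 ± 11.7 and 32.4 ± 6.85 normalized counts. All 3 BALB/cJ values exceeded all 3 of the other allele. The log2 ratio was 1.45 (0.29, adjusted p = 0.0022), and 1.46 (adjusted p = 0.0416) with the library as a block, and it missed the threshold without replicate 2 (adjusted p = 0.0534) or replicate 3 (0.093). Between the strains, BALB/cJ exceeded C57BL/6J by 0.65 and 1.02 in the 2 windows of this region.

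*Zfp760*, a KRAB gene with 16 fingers, also favored the BALB/cJ allele, with 34, 66 and 44 reads against 12, 14 and 4. The log2 ratio of 2.28 (0.47, adjusted p = 0.00297) was larger than the 0.60 (0.29, adjusted p = 0.217) between the strains, where the libraries overlapped, at 70.9, 148.8 and 136.6 in BALB/cJ and 70.6, 65.2 and 90.7 in C57BL/6J. In the same window A/J over C57BL/6J was called (1.10, adjusted p = 0.0131). *Zfp456* and *Zfp994* favored the C57BL/6J allele. At *Zfp456*, which also had less in BALB/cJ (78.4 ± 4.15) than in C57BL/6J (137 ± 13.1) between the strains (-0.82, adjusted p = 0.0275), there were 2, 6 and 10 BALB/cJ reads and 13, 100 and 20 C57BL/6J reads, so that replicate 2 gave most of the latter, with a log2 ratio of -2.61 (0.61, adjusted p = 0.00797) and of -1.46 (adjusted p = 0.569) without it. *Zfp994* had 30, 86 and 50 against 100, 182 and 147, and the ratio was -1.35 (0.24, adjusted p = 0.000642). In its window 61 bp upstream the strains differed by -0.34 (adjusted p = 0.569), with 135.9, 139.6 and 291.4 in BALB/cJ and 247.8, 195.6 and 280.9 in C57BL/6J, which overlap.

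At *Zfp692* the region in the window 5124 bp upstream had 15, 31 and 22 BALB/cJ reads and 38, 78 and 50 C57BL/6J reads (-1.21, 0.35, adjusted p = 0.0372), with no overlap of the normalized counts. Its neighboring window at 5815 bp upstream went the other way between strains, as given above, and held 2, 24 and 15 BALB/cJ reads against 0, 15 and 1, too few to test. Paired by library, *Zfp994*, *Zfp692*, *Zfp760* and *Zfp456* were not called (adjusted p = 0.0526, 0.0670, 0.0693 and 0.154). Without CB6F1/J replicate 3 none was called either (adjusted p = 0.0739, 0.259, 0.146 and 0.0757). Without replicate 2 this held for *Zfp760* (0.0875) and *Zfp692* (0.269), and without replicate 1 for *Zfp692* (0.0658). The windows of *Zfp456* and *Zfp994* have near-identical copies at 91.5% and at 95.2% to 95.7% identity.

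**Figure D4:**
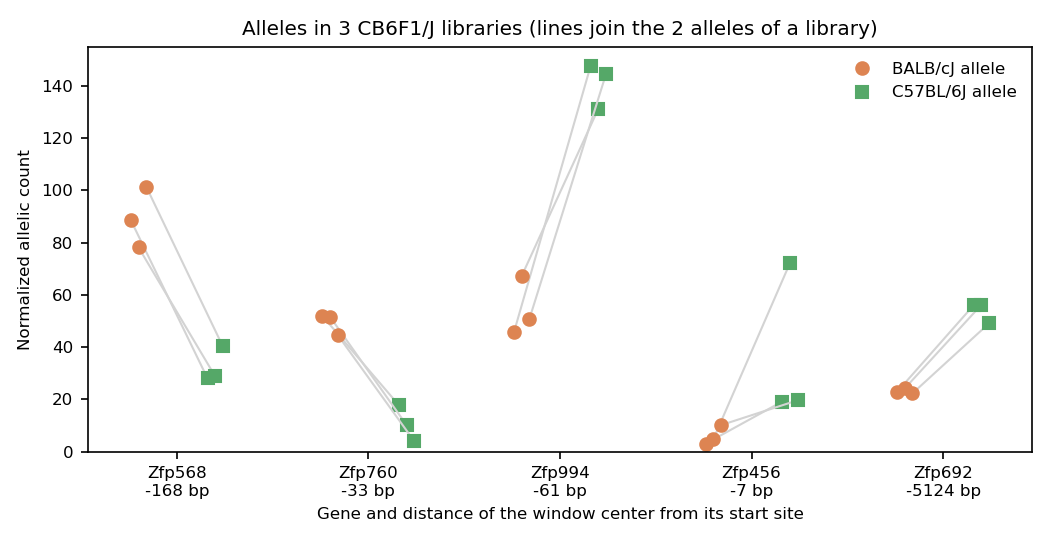
Normalized allelic counts of the BALB/cJ allele (orange circles) and the C57BL/6J allele (green squares) in the 3 CB6F1/J libraries for the 5 Zfp genes called between alleles, with a gray line joining the alleles of a library and the distance of the window center from the start under each gene. In each gene the 3 values of one allele lie apart from the 3 of the other, and at *Zfp456* a single library reaches 72.1 while its other C57BL/6J values are 19.2 and 19.7.

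Few of the strong strain differences could be followed on the alleles. Of the 35 windows called between BALB/cJ and C57BL/6J, 3 passed the count minimum for the alleles and 16 had no allelic count at the nearest region. In these 3, the log2 ratio of the alleles was 1.45 at *Zfp568*, 1.32 (adjusted p = 0.238) at *Zfp964*, against 1.56 between strains, and -0.83 (adjusted p = 0.488) at the start of *Zfp493*, against -1.61. Among the untested windows, that of *Zfp146* had 0 BALB/cJ reads and 42 C57BL/6J reads (10, 28 and 4), and the upstream window of *Zfp493* had 6 (0, 2 and 4) and 38 (4, 24 and 10). At *Zfp459* the counts were 37 (16, 12 and 9) and 9 (1, 8 and 0). These 3 windows had the same favored side as between strains, with too few reads for the test. They are among 16 called windows with some allelic count that were not tested. The favored sides over all 16 were not counted.

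The strain and the allele difference were then compared with each other. The strain counts are of windows of 1000 bp, and the allele counts of the nearest region inside each, which is 200 bp wide as deposited. With the replicate number not taken into account, 0 of the 64 windows passed for the difference by edgeR, against 2.84% of all windows. DESeq2 likewise called 0, and 6 windows reached an unadjusted p under 0.05. With the replicate number as a block, 3 passed, at *Zfp760* (strain minus allele -1.79, adjusted p = 0.0128), *Zfp692* (1.16, adjusted p = 0.0338) and *Zfp456* (1.80, adjusted p = 0.0473). The share of all windows that passed under the block is not given here. The 2 windows of *Zfp994* had an adjusted p of 0.0390 and 0.0344 there, with differences of 0.94 and 0.95 that lie just under the threshold on size. Without the block the adjusted p of the first 3 windows were 0.0865, 0.163 and 0.130. At *Zfp568* the difference was -0.44 and -0.81 in its 2 windows (adjusted p = 0.701 and 0.384). The *Zfp692* window 4565 bp upstream uses the same allelic region as that at 5124 bp. Its difference was 0.40 with the block (adjusted p = 0.530) and 0.42 without it (adjusted p = 0.758).

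**Figure D5:**
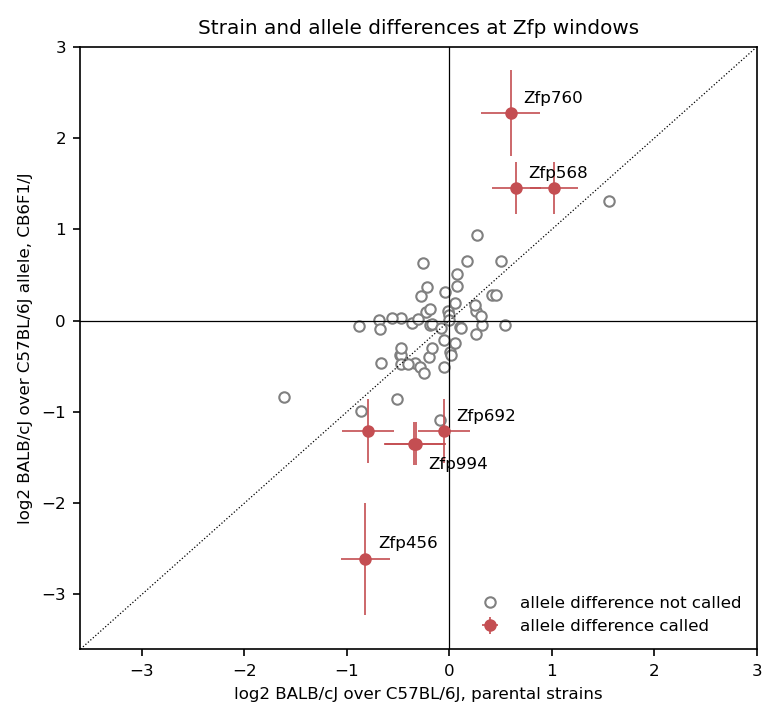
Log2 fold change of BALB/cJ over C57BL/6J between the parental strains (horizontal axis) and between the alleles of CB6F1/J (vertical axis) for the 64 Zfp windows tested in both, with windows called between alleles in red with standard errors (n = 3 libraries per strain and 3 hybrid libraries) and equality as the dotted line. *Zfp760* lies at 0.60 and 2.28 and *Zfp456* at -0.82 and -2.61, farther from 0 on the allelic axis.

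Genes of the KRAB corepressor machinery, which the KRAB proteins need to silence their targets, had windows at 23 of 25 listed genes, and 59 windows at 22 genes were tested. Their median level at the highest window was 225, 212 and 179 in the 3 strains. Between A/J and C57BL/6J 0 of these windows were called by edgeR and by DESeq2 (7.09% of all windows by edgeR), and 6 had an unadjusted p under 0.05. Between A/J and BALB/cJ 3 were called (5.08%, against 3.63% of all windows) and between BALB/cJ and C57BL/6J 5 (8.47%, against 8.56% of all), where DESeq2 called 2 and 4. *Atf7ip*, a partner of SETDB1, had an intergenic window with 27.3 ± 7.23, 2.82 ± 1.54 and 30.7 ± 13.5 in the 3 strains (BALB/cJ over C57BL/6J -3.52, 0.58, adjusted p = 0.000115), and *Pphln1*, a subunit of the HUSH silencing complex, a window with 97.3 ± 7.67, 46.4 ± 13.7 and 108 ± 17.2 (-1.25, adjusted p = 0.00217). In an intron of *Morc3* and upstream of *Dnmt1*, the maintenance DNA methyltransferase, windows differed by -1.39 and 1.19 (adjusted p = 0.0304 and 0.0474). The start windows of *Trim28*, at 171 ± 39.5, 177 ± 19.6 and 130 ± 30.7, and of *Setdb1*, at 28.6 ± 14.5, 21.9 ± 3.99 and 37.6 ± 1.86, were not called.

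The members were limited to 10000 bp from a start site. Just inside this limit lay a window of *Zfp827* at 9957 bp, with 12.4 ± 4.84, 27.1 ± 14.3 and 8.94 ± 0.654 in the 3 strains. Just outside lay one of *Zfp131* at 10018 bp, with 8.89 ± 6.37, 3.63 ± 1.16 and 2.83 ± 2.68, under the minimum for a test.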

How the data were processed

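H3K27ac libraries of sorted Kupffer cells (3 of each of the 3 strains and of the hybrid) and 7 inputs were used, and the hybrids' inputs were not used here. According to the methods, the authors mapped reads with Bowtie2 to the strain genomes, shifted them to mm10 with MMARGE and counted raw tags with HOMER in 1000 bp windows around merged ATAC-seq peaks. The labels also name FastQC and DESeq2, and versions are not given in the sources used here. Replicates 1 and 3 of each strain hold raw counts as deposited. Replicate 2, the inputs and the allele columns hold fractions in steps of 0.5. They were deposited by the authors without a stated reason for the fractions, were treated here as estimated counts (expected counts), and were rounded to whole numbers ahead of the fits. The allele columns count reads that carry a variant, in regions that are 200 bp wide in the file, although the methods state 1000 bp. These regions do not overlap. Another 6 columns, of all perfectly matching reads, map to no sample and were not used.

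Windows with a mean normalized count over 16 were tested with edgeR 4.0.16 in R 4.3.3 (TMM, quasi-likelihood, robust) in 1 fit of 9 libraries, or of 6 allele columns, with Benjamini–Hochberg adjustment over all tested windows. The standard error of a log2 fold change was its size over the root of its F statistic. For each window the allelic region with its midpoint nearest to the window's and inside it was taken. The strain-minus-allele difference was an interaction in 1 fit of both. edgeR's common biological variation was 0.214 for strain libraries and 0.293 for allele columns. The labels do not say that replicates are separate animals, so p-values measure the spread between these libraries, which may be technical. Same-numbered libraries of different strains deviated together from their strain means, with correlations of 0.227 to 0.414 in all 9 pairs, and the 2 alleles of a number come from 1 library, so the replicate number was used as a block in an alternative fit, whose values are given where they change a call. Low total counts limit precision, most of all in replicate 2 and in the allele columns.

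Fingers (C, 2 to 4 residues, C, 12 residues, H, 3 to 5 residues, H) and the KRAB A-box (DV, 3 residues, F or L, 2 residues, E or D, EW) were searched in translations of the longest GENCODE coding sequence of each gene. No finger was found for *Zfp330*, *Zfp703*, *Zfp839*, *Zfp935*, *Zfp503* and *Zfp474*, and no protein for *Zfp939*. Promoters are from RefSeq on GRCm38.p6, with entries for 251 of 301 genes, and copies were sought with minimap2 2.31-r1302 in GRCm38.

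The members and lists were chosen with earlier results of these data known. Genes were named from, per comparison, up to 12 called genes in order of adjusted p with their window of lowest p, the 5 genes of highest level at the start, up to 3 genes per cluster, the 8 highest and any called genes of the known-role list, up to 4 corepressor genes and the windows at the distance limit. Other genes and windows in the text were added after their values were seen. Alternatives were DESeq2 1.42.0 as the test or for size factors, no count minimum, the block, leaving out each library, start windows alone, an input minimum, summed or unjoined allelic regions and 1 library size per hybrid library. Leaving out near-identical copies or the second replicates was chosen after seeing the data.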

Additional observations from a re-analysis of the deposited data

Results flagged for a closer look

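The BALB/cJ over C57BL/6J difference between the parental strains differed from that between the alleles of CB6F1/J at 3 Zfp genes when the replicate number was a block. The share of all windows that passed under the block is not given here, so this count has no background beside it. The strain counts are of windows of 1000 bp and the allele counts of regions of 200 bp. At the start of *Zfp760* the strain minus allele log2 difference was -1.79 (adjusted p = 0.0128), with a larger BALB/cJ excess between the alleles. At the window of *Zfp692* that lies 5124 bp upstream it was 1.16 (adjusted p = 0.0338). There the alleles were called only without the block, and the strains did not pass the test. Under the block the allele difference itself was not called at *Zfp760*, *Zfp692* or *Zfp456* (adjusted p = 0.0693, 0.0670 and 0.154). At the start of *Zfp456* it was 1.80 (adjusted p = 0.0473), and there the strains and the alleles both had less H3K27ac on the BALB/cJ side. Without the block none of the 3 passed by edgeR (adjusted p = 0.0865, 0.163 and 0.130). Under the block *Zfp994* had an adjusted p of 0.0390 and 0.0344 in its 2 windows, with strain minus allele differences of 0.94 and 0.95, under the threshold on size. The *Zfp692* window 4565 bp upstream, which uses the same allelic region as that at 5124 bp, had 0.40 (adjusted p = 0.530) under the block.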

How the results depend on the processing

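The counts of called Zfp windows in the strain comparisons were 15, 34 and 35 for A/J against BALB/cJ, A/J against C57BL/6J and BALB/cJ against C57BL/6J. They were 15, 33 and 31 with DESeq2, 15, 34 and 34 with its size factors, 16, 37 and 35 without a count minimum, 14, 30 and 32 without near-identical copies and 16, 45 and 48 without replicate 2 of each strain. With the replicate number as a block they were 20, 41 and 41, and shares of all windows called under a block are not given here. With start windows alone they fell to 6, 12 and 13, as fewer windows enter, and with at least 3 input counts in both strains to 21 for A/J against C57BL/6J. Leaving out 1 library gave 8 to 16, 19 to 42 and 25 to 40. The 8 allele calls became 2 under the block, which pairs the alleles of a library, and 5 without near-identical copies, and ranged from 0 to 7 without 1 library. For the strain minus allele difference the count of 0 became 3 under the block and ranged from 0 to 1 without 1 library. The causes of these changes were not tested. The 26 clusters became 23 with neighbors within 250000 bp and stayed 26 within 1000000 bp. No called gene named by the rule changed direction under any alternative run. In alternatives that kept all libraries or left out all second replicates, 204 of its values stayed on their side of the threshold and 6 lost the call. Without 1 library these numbers were 304 and 35.

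In the allele comparison 64 windows were tested, with a median of 226 allelic counts, against 582 between strains. Whether the other windows lacked variants or depth was not tested. Windows can lie in a neighboring gene, reads at related copies can be split, and a mark at a start site does not measure transcription.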
